A study of Mus musculus with 5 samples.

Results

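The nephron is built and kept by transcription factors that give each segment its identity. The genes described here are 8 such factors, picked by name from the 35478 genes of the deposited tables: Hnf4a, Hnf4g, Pax2, Pax8, Lhx1, Emx1, Tfap2b and Grhl2. They were measured by RNA-seq in the injured kidney of 2 Prdm16fl/fl mice, numbered 1 and 3 in the labels, and 3 Ksp-Cre/Prdm16fl/fl mice, numbered 1, 2 and 3, with 1 library per mouse. All 5 were male littermate-controlled mice aged 7 to 8 weeks whose strain the labels give as C57BL/6J;129 in one field and as C57BL/6J in the titles, and both groups carried loxP sites around exon 9 of both Prdm16 alleles. Only the second group also carried Ksp-Cre, a Cre recombinase under the promoter of kidney-specific cadherin, which is active in tubular epithelium and not in interstitial, vascular or blood cells. Every mouse had undergone unilateral ischemia-reperfusion injury (UIRI): the vessels of the left kidney were clamped for 35 minutes. RNA was taken at 11 days, after the right kidney had been removed. By the study's methods the RNA came from kidney cortex, so genes of the medulla are seen only as far as the dissection carried them along. Uninjured kidneys were not analysed here, so each difference is one between genotypes after injury.

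HNF4A is a nuclear receptor that switches on the transport and metabolic genes of proximal tubule cells, and HNF4G is its close relative. PAX2, PAX8 and LHX1 form the early renal lineage, from the nephric duct to the renal vesicle, and persist at lower levels in parts of the adult tubule, while EMX1, TFAP2B and GRHL2 belong to the distal convoluted tubule, the connecting tubule and the collecting duct. After ischemia, surviving tubule cells lose part of their mature program before they regain it.

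Total counts were 14939040 to 16425161 per library. Genome-wide, log2 values of scaled counts correlated at 0.970 to 0.991 between the other 4 libraries and at 0.943 to 0.960 between Ksp-Cre/Prdm16fl/fl mouse 3 and each of them, so this mouse stood apart. The 8 factors are given with and without it, as are the calls and medians of gene lists where it changed them. Prdm16 itself was at 25.3 and 20.02 counts per 1000000 (CPM) in the Prdm16fl/fl mice and at 17.1, 17.0 and 17.99 in the Ksp-Cre/Prdm16fl/fl mice (log2 fold change -0.38, adjusted p = 0.259 by edgeR's quasi-likelihood test with Benjamini-Hochberg adjustment). A count over the whole gene also takes in the exons that stay after recombination and the cells without Cre. The kidney label was checked against its markers. The summed level of 12 proximal tubule markers was 12816 and 13233 CPM in the Prdm16fl/fl mice and 5038 to 6074 CPM in the Ksp-Cre/Prdm16fl/fl mice, with none at 0.

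All 8 factors were detected in every library, with 173 to 9817 counts behind each value, and all passed the filter on low counts. No factor passed an adjusted p of 0.05 in edgeR's quasi-likelihood test over the 16394 genes tested, of which 0.976% passed. Without adjustment, 2 factors were lower (Lhx1 and Emx1) and 1 was higher (Grhl2) at p under 0.05, against 18.8% of all genes in either direction. In CPM, libraries of the genotypes did not overlap for 3 factors that were lower in the Ksp-Cre/Prdm16fl/fl mice, Hnf4a, Lhx1 and Emx1. Of all genes, 21.3% lay that way. They did not overlap either for 1 factor that was higher, Grhl2, where 20.3% of all genes lay that way. The median log2 fold change of the 8 was -0.10, beside 0.038 for all genes, and the median size of the change, regardless of sign, was 0.26 in both. DESeq2 called Emx1 as the single factor of the 8, where it called 8.0% of the 15122 genes to which it gave an adjusted p. Without Ksp-Cre/Prdm16fl/fl mouse 3, edgeR called 3 of the 8, Lhx1 and Emx1 as lower and Grhl2 as higher, and 18.9% of all genes.

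**Figure D1:**
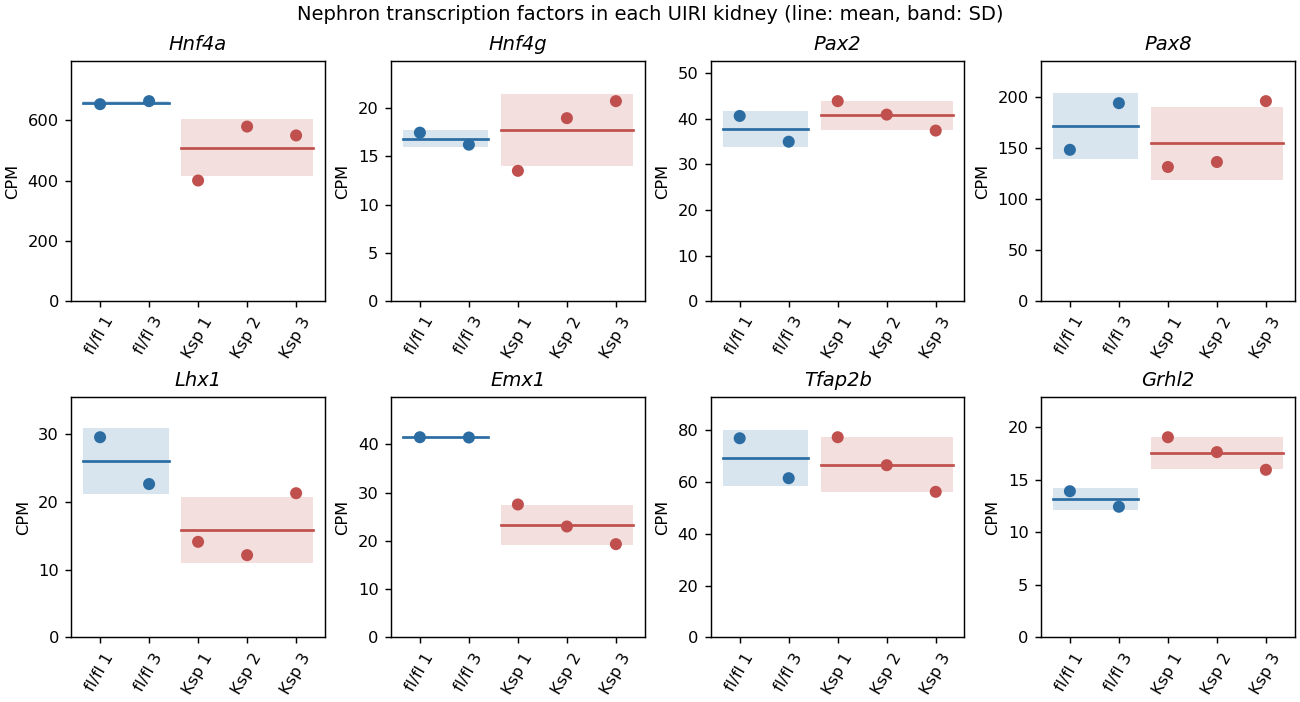
Each panel plots the CPM of 1 factor (y axis, from 0) in the 5 libraries (x axis; blue, the 2 Prdm16fl/fl mice; red, the 3 Ksp-Cre/Prdm16fl/fl mice), with the group mean as a line and the SD as a band. The groups are apart for Hnf4a, Lhx1, Emx1 and Grhl2, and overlap for the other 4.

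Levels between genes are compared here as TPM, the count per length of merged exons scaled to 1000000 per library. Hnf4a was the most abundant of the factors, with 319 and 294 TPM in the Prdm16fl/fl mice and 229, 330.3 and 279.8 TPM in the Ksp-Cre/Prdm16fl/fl mice. In TPM the genotypes thus overlapped for Hnf4a, with Ksp-Cre/Prdm16fl/fl mouse 2 the highest of all. They also overlapped for Lhx1, at 16.4 and 11.4 TPM against 9.13, 7.85 and 12.3 TPM. Pax8 followed with 133 to 183 TPM and Emx1 with 39.4 to 81.1 TPM. These first 3 places were apart from each other and from the rest in every library. Pax2 (16.1 to 26.0 TPM), Tfap2b (13.8 to 22.4 TPM), Lhx1 (7.85 to 16.4 TPM), Hnf4g (7.55 to 11.4 TPM) and Grhl2 (4.32 to 8.54 TPM) each overlapped their neighbour in the order. Within 1 library the order was firmer, since Pax2 was above Tfap2b and Tfap2b above Lhx1 in 5 of 5 libraries, and Lhx1 was above Hnf4g and Hnf4g above Grhl2 in 4 of 5.

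Sequence before the transcription start of 6 of the 8 factors, 9 starts in all, was taken from RefSeq on build GRCm38.p6, which differs from the build of the gene positions given further down. Hnf4g and Grhl2 had no entry. The first pair shown are the starts of Hnf4a, since its libraries did not overlap in CPM. Its use of these starts also marks tissue and maturity in other settings. They are the upstream start, known as P2 (chr2:163506607-163506856, + strand), and the downstream start, known as P1 (chr2:163546905-163547154, + strand). The adult liver and proximal tubule are known to use the downstream start. Each run holds the 250 bases before the start, 5′ to 3′, and capitals mark TAATTA, a core bound by homeodomain proteins of the LIM and EMX kind.
Hnf4a upstream start: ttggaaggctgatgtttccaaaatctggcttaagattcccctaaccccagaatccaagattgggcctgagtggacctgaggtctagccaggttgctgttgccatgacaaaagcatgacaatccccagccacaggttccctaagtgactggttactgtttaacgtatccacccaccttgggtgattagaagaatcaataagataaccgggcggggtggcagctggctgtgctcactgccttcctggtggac
Hnf4a downstream start: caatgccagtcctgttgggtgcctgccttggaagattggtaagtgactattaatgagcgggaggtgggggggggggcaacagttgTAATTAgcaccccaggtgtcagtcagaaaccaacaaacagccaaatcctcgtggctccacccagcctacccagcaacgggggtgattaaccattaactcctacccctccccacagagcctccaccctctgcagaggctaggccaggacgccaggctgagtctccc
The deposited values are counts per gene, so they do not say from which of these starts Hnf4a was read. TAATTA was found in 1 of the 9 windows of the factors, the downstream start of Hnf4a, and in 4.84% of all 32851 windows.

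The next sequences are those of Emx1, the factor closest to the threshold (chr6:85187681-85187930, + strand), of 1 of the 3 starts of Pax2 (chr19:44755502-44755751, + strand) and, for comparison, of Slc12a3, the thiazide-sensitive sodium chloride cotransporter that defines the distal convoluted tubule (chr8:94328958-94329207, + strand). Capitals mark GCCNNNGGC, the palindrome that TFAP2 proteins bind.
Emx1: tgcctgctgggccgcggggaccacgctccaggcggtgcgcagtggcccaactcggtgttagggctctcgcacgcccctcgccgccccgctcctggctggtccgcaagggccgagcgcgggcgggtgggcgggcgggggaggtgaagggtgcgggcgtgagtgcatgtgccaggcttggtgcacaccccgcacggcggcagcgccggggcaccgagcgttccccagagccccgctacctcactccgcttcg
Pax2: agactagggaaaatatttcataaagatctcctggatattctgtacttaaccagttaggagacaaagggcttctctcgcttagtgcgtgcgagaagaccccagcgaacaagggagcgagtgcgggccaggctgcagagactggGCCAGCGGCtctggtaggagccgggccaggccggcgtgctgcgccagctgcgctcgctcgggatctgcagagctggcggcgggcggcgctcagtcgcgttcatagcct
Slc12a3: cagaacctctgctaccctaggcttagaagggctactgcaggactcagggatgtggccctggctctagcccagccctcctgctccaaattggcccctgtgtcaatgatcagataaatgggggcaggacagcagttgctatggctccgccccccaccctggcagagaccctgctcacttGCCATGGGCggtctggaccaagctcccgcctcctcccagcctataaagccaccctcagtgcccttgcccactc
GCCNNNGGC lay in 1 of the 9 windows of the factors and in 13.7% of all windows. It was in 7 of the 14 windows of genes of distal convoluted tubule transport (Kcnj10, Kcnj16, Pvalb, Slc12a3, Trpm6 and Wnk4), in 4 of the 10 windows of proximal tubule markers, in 2 of the 11 windows of HNF4A targets and in 0 of the 5 windows of junction genes linked with GRHL2. On both strands, none of the 9 windows held CAAAGTCCA or CAAAGGTCA for HNF4 (0.384% and 0.426% of all windows), GTTAATNAT for HNF1 (0.737%), GTCACGC for PAX2, PAX5 and PAX8 (1.78%) or AACCGGTT for GRHL factors (0.116%). No match in the windows printed overlapped another. These are matches of letters only, and the base composition of the windows was not accounted for.

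Hnf4a, which lies at chr2:163348731-163414827 (+ strand) in the coordinates of the deposited tables, was at 654 and 664 CPM in the Prdm16fl/fl mice and at 401, 579.9 and 550.4 CPM in the Ksp-Cre/Prdm16fl/fl mice. All 3 Ksp-Cre/Prdm16fl/fl libraries lay below both Prdm16fl/fl libraries, mouse 1 the furthest. The log2 fold change was -0.37 (SE 0.19, 95% interval -0.83 to 0.096, adjusted p = 0.356 by edgeR), and -0.42 without Ksp-Cre/Prdm16fl/fl mouse 3 (adjusted p = 0.107). In whole tissue, fewer cells of a type and less RNA per cell cannot be told apart. Hnf4g (chr3:3573090-3724860, + strand) was at 17.5 and 16.2 CPM against 13.5, 19.0 and 20.7 CPM, and the groups overlapped on both sides. Its log2 fold change was 0.073 (SE 0.21, 95% interval -0.45 to 0.60, adjusted p = 0.882), an interval that leaves room for a change of either sign. As a share of the summed TPM of both genes, Hnf4g was 2.73% and 2.50% in the Prdm16fl/fl mice and 3.42%, 3.33% and 3.81% in the Ksp-Cre/Prdm16fl/fl mice, so this share was higher in each of the 3. Taken alone, both genes overlapped between the genotypes in TPM. A share also moves when only one gene of the pair changes. How many pairs of genes would lie apart in this way was not tested.

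A transcript on the opposite strand, Hnf4aos, overlaps the span of Hnf4a without sharing exon bases. It was at 15.98 and 19.2 CPM in the Prdm16fl/fl mice and at 5.62, 6.14 and 3.40 CPM in the Ksp-Cre/Prdm16fl/fl mice. Its log2 fold change was -1.80 (SE 0.28), which edgeR left just short of the threshold (adjusted p = 0.0516) and DESeq2 called (adjusted p = 4.39e-06). Without Ksp-Cre/Prdm16fl/fl mouse 3 edgeR called it as well (-1.58, adjusted p = 0.000958). Relative to Hnf4a in the same library, the log2 difference was -1.42 between the group means, with no overlap. Use of the strand in counting is not given in the sources used here, so reads of Hnf4a introns and of Hnf4aos cannot be told apart.

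Genes that HNF4A is known to bind and activate in liver or kidney were mostly below 0. Of 14 such genes, 13 were tested, 11 had a log2 fold change below 0 and 1 fell by edgeR, Fbp1, the gluconeogenic fructose bisphosphatase. Fbp1 was at 679.8 and 716 CPM in the Prdm16fl/fl mice and at 337, 352 and 347 CPM in the Ksp-Cre/Prdm16fl/fl mice (log2 fold change -1.01, SE 0.12, adjusted p = 0.0412). The median of the 13 was -0.79, and -1.01 without Ksp-Cre/Prdm16fl/fl mouse 3, with 11 called as lower there and Pklr as higher. They ranged from Apoa4, an apolipoprotein (-1.77, adjusted p = 0.129), to Pklr, the liver and kidney pyruvate kinase of glycolysis (0.49, adjusted p = 0.127). DESeq2 called 6 as lower (Apoa4, Apob, Apoc3, Apom, Ttr and Fbp1) and Pklr as higher. In Ksp-Cre/Prdm16fl/fl mouse 3, the summed level of the 13 tested and 1 untested gene was 12338 CPM, as high as the 12332 CPM of Prdm16fl/fl mouse 1, against 6211 and 7104 CPM in the other two.

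The 12 proximal tubule markers were all below 0, with a median of -1.31, and 2 fell: Miox, the inositol oxygenase (911 and 921 CPM against 212, 243 and 129.9 CPM, log2 fold change -2.23, adjusted p = 0.0412), and Acsm2, a mitochondrial acyl-CoA synthetase (2289.6 and 2072 CPM against 697, 779 and 741 CPM, -1.56, adjusted p = 0.0327). DESeq2 called 7 of the 12 as lower, and edgeR 11 without Ksp-Cre/Prdm16fl/fl mouse 3, with a median of -1.08. The largest difference was in Slc7a13, an amino acid transporter of the straight proximal tubule (-3.37, adjusted p = 0.140), and the smallest in Slc27a2, a fatty acid transporter (-0.46, adjusted p = 0.445). The log2 ratio of Hnf4a to the mean of these markers was -0.12 and -0.20 in the Prdm16fl/fl mice and 0.49, 0.79 and 1.75 in the Ksp-Cre/Prdm16fl/fl mice, a shift of 1.17. The ratio of Hnf4g to them shifted by 1.61 and that of Hnf4a to its 13 tested targets by 0.40, all without overlap. Such a ratio also shifts when only the markers or targets fall, as it would for a gene that did not change. How many of all genes would lie apart in this way was not tested, here or for the ratios to markers further down. Only the shift of such ratios is read, since their level depends on gene length. In each of the 7 ratios of this kind that were computed, the exact two-sided permutation test gave p = 0.2, before and after adjustment over the 7. This is the smallest p that the test can give here, since it doubles the smaller tail over 10 splits.

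**Figure D2:**
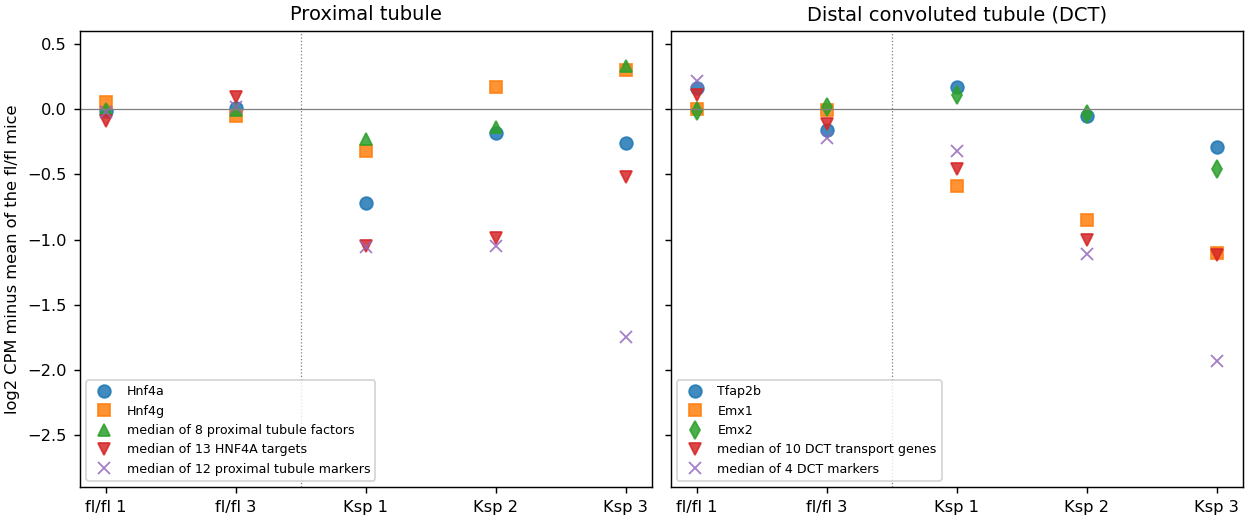
The y axis is the log2 CPM minus the mean of the 2 Prdm16fl/fl mice, the x axis the 5 libraries; symbols are single genes or the median over a gene list, for the proximal tubule (left) and the distal convoluted tubule (right). Hnf4a and Hnf4g lie above the marker median in all 3 Ksp-Cre/Prdm16fl/fl mice, and so does Tfap2b on the right, while Emx1 lies below Tfap2b in each.

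Other factors of the proximal tubule gave no call by edgeR or DESeq2, and none had an unadjusted p under 0.05. Of 8, 5 were below 0, with a median of -0.16, and their range ran from Nr1h4, the bile acid receptor FXR (229 and 253 CPM against 109, 161 and 288 CPM, log2 fold change -0.37, adjusted p = 0.637), to Nr1i2, the xenobiotic receptor PXR (0.82, adjusted p = 0.418). Ksp-Cre/Prdm16fl/fl mouse 3 raised both values. It was the highest of the 5 libraries in Nr1h4, and without it Nr1h4 was at -0.83 and was called as lower by edgeR (adjusted p = 0.0118). For Nr1i2 it stood at 42.4 CPM against 13.7 to 18.02 CPM in the other 4, and without it the log2 fold change of Nr1i2 was 0.19 (adjusted p = 0.444 by edgeR).

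Pax8 (chr2:24310563-24365611, - strand), which marks the nephron lineage and remains on along the adult tubule, was at 149 and 194 CPM in the Prdm16fl/fl mice and at 132, 137 and 196 CPM in the Ksp-Cre/Prdm16fl/fl mice. Mouse 3 of the second group was level with the higher Prdm16fl/fl mouse, and the other two lay below both. The log2 fold change was -0.15 (SE 0.22, 95% interval -0.69 to 0.40, adjusted p = 0.763), and -0.35 without that mouse (adjusted p = 0.101). Pax2 (chr19:44735040-44826708, + strand), which acts with PAX8 in the duct and nephron and stays in the collecting duct, was at 40.6 and 34.9 CPM against 43.8, 40.9 and 37.4 CPM. The groups overlapped, with a log2 fold change of 0.11 (SE 0.13, 95% interval -0.22 to 0.43, adjusted p = 0.703). This was the narrowest interval of the 8. Pax2 made up 13.5% and 9.28% of the summed TPM of Pax2 and Pax8 in the Prdm16fl/fl mice and 15.9%, 14.5% and 9.78% in the Ksp-Cre/Prdm16fl/fl mice, again with overlap. Gm13415, on the opposite strand of Pax8, shares 87 exon bases with it but held 2 to 9 counts per library, and 1700039E22Rik lies opposite Pax2 without shared exon bases.

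Lhx1 (chr11:84408801-84416360, - strand), a LIM homeodomain factor needed for the renal vesicle, was at 29.6 and 22.7 CPM in the Prdm16fl/fl mice and at 14.1, 12.2 and 21.3 CPM in the Ksp-Cre/Prdm16fl/fl mice. Mouse 3 of the second group came close to Prdm16fl/fl mouse 3, and the groups did not overlap in CPM. In TPM it lay above that mouse, so the groups overlapped there. The log2 fold change was -0.72 (SE 0.27, 95% interval -1.38 to -0.066, unadjusted p = 0.0359, adjusted p = 0.230 by edgeR). Without Ksp-Cre/Prdm16fl/fl mouse 3 it was -0.99 and was called (adjusted p = 0.0056). DESeq2 gave an adjusted p of 0.165 with all 5 libraries.

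Of 10 genes that act with PAX2, PAX8 and LHX1 in tubule formation, 9 were tested and 0 were called by edgeR, with 2 higher and 0 lower at an unadjusted p under 0.05 and a median of -0.017. They ran from Wnt9b, a duct signal (2.43 and 3.16 CPM against 1.59, 2.24 and 2.07 CPM, log2 fold change -0.50, adjusted p = 0.428), to Wnt11, a ligand of the ureteric tip (0.135 and 0.502 CPM against 1.02, 1.30 and 3.86 CPM, 2.67, adjusted p = 0.189). Wnt4, the signal that turns mesenchyme into epithelium, was at 5.80 and 6.10 CPM against 13.8, 16.01 and 10.1 CPM (1.2, adjusted p = 0.0834). DESeq2 called Wnt4 and Wnt11 as higher, and so did edgeR without Ksp-Cre/Prdm16fl/fl mouse 3, along with Jag1, with the list median at 0.040. Wnt4 is named here after its values were seen. Of 7 nephron progenitor factors, 3 were tested and 0 were called by edgeR or DESeq2 (1 higher without adjustment, Sall1), with a median of 0.030, and -0.047 without Ksp-Cre/Prdm16fl/fl mouse 3. They ran from Meox1, at 3.18 to 3.60 CPM (-0.048, adjusted p = 0.930), to Sall1, which adult tubules also express, at 74.4 and 69.7 CPM against 84.1, 93.9 and 105 CPM (0.39, adjusted p = 0.203). Six2 had 0 counts in all 5 libraries.

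Emx1 (chr6:85164913-85181445, + strand), a homeodomain factor that in the kidney is found in the distal nephron, gave the largest difference relative to its spread among the 8. It was at 41.5 and 41.4 CPM in the Prdm16fl/fl mice and at 27.5, 23.0 and 19.3 CPM in the Ksp-Cre/Prdm16fl/fl mice, so that all 3 lay well below both. The mean was 41.4 ± 0.042 CPM (SD, n = 2) against 23.3 ± 4.11 CPM (SD, n = 3). The log2 fold change was -0.83 (SE 0.17, 95% interval -1.24 to -0.42). edgeR gave an unadjusted p of 0.00256 and an adjusted p of 0.0772, short of the threshold, and DESeq2 an adjusted p of 0.00489. Without Ksp-Cre/Prdm16fl/fl mouse 3 edgeR called it (-0.71, adjusted p = 0.00633). Its relative Emx2 was at 59.7 and 60.9 CPM against 65.1, 58.7 and 43.8 CPM (-0.11, adjusted p = 0.782). The share of Emx1 in the summed TPM of both was 60.6% and 60.1% in the Prdm16fl/fl mice and 48.4%, 46.4% and 49.4% in the Ksp-Cre/Prdm16fl/fl mice. The share was thus lower in each Ksp-Cre/Prdm16fl/fl mouse, without overlap, as was Emx1 alone. How many pairs of genes would lie apart in this way was not tested. Which of the pair was the more abundant depended on the scaling by exon length, since in CPM Emx2 was above Emx1 in every library.

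Tfap2b (chr1:19279132-19309069, + strand), an AP-2 factor needed for the development of the distal convoluted tubule, was at 76.9 and 61.5 CPM in the Prdm16fl/fl mice and at 77.3, 66.5 and 56.2 CPM in the Ksp-Cre/Prdm16fl/fl mice. The groups overlapped over nearly their whole range. The log2 fold change was -0.053 (SE 0.18, 95% interval -0.48 to 0.37, adjusted p = 0.895 by edgeR). Its sign turned when counts were scaled by library size alone (0.063). Its relative Tfap2a was at 11.98 to 14.1 CPM in all 5 libraries (0.020, adjusted p = 0.960).

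By their median, the transport genes of the distal convoluted tubule lay nearer to Emx1 than to Tfap2b. This was not particular to the segment, since podocyte markers (-0.85), HNF4A targets (-0.79) and intercalated cell markers (-0.91), among other lists, had similar medians. All 10 had a log2 fold change below 0, with a median of -0.82 beside -0.83 for Emx1 and -0.053 for Tfap2b, and 1 fell by edgeR: Klhl3, the adaptor that marks WNK kinases for degradation (57.6 and 44.1 CPM against 24.3, 20.02 and 17.5 CPM, log2 fold change -1.30, SE 0.19, adjusted p = 0.0467). The smallest difference was in Wnk4, the kinase that KLHL3 acts on (-0.17, adjusted p = 0.786). Pvalb, the calcium-binding parvalbumin of the early segment, was at 12.5 and 11.0 CPM against 1.82, 0.413 and 0 CPM. Slc12a3 was at 1472 and 919 CPM against 801, 559 and 183 CPM (-1.22, adjusted p = 0.318). DESeq2 called Fxyd2, Klhl3 and Egf as lower. Among the 4 libraries other than Ksp-Cre/Prdm16fl/fl mouse 3, edgeR called 6 as lower (Slc12a3, Pvalb, Fxyd2, Klhl3, Wnk4 and Egf), with a median of -0.68. Against the mean of the 4 markers of this segment (Slc12a3, Pvalb, Trpm6 and Calb1), the log2 ratio of Tfap2b was -0.58 and -0.50 in the Prdm16fl/fl mice and 0.45, 1.13 and 1.88 in the Ksp-Cre/Prdm16fl/fl mice, a shift of 1.70. For Emx1 that shift was 0.91. Pvalb, whose log2 value at 0 counts depends on the prior count of 2, carried much of both. Over the other 3 markers, an alternative chosen after the values were seen, the ratio of Tfap2b was -1.65 and -1.49 in the Prdm16fl/fl mice and -1.17, -0.81 and -0.42 in the Ksp-Cre/Prdm16fl/fl mice, a shift of 0.77 without overlap, and that of Emx1 shifted by -0.017 with overlap. The 4 markers summed to 1897 and 1172 CPM in the Prdm16fl/fl mice and to 1098, 710.3 and 327 CPM in the Ksp-Cre/Prdm16fl/fl mice, with Pvalb at 0 counts in mouse 3.

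Grhl2 (chr15:37233065-37363813, + strand), a grainyhead factor that keeps epithelial junctions in the collecting duct and connecting tubule, was the factor of the 8 that was higher in each Ksp-Cre/Prdm16fl/fl mouse. It was at 13.9 and 12.4 CPM against 19.0, 17.6 and 15.9 CPM. The log2 fold change was 0.41 (SE 0.16, 95% interval 0.025 to 0.80, unadjusted p = 0.0403, adjusted p = 0.244 by edgeR), and 0.48 without Ksp-Cre/Prdm16fl/fl mouse 3, where it was called (adjusted p = 0.0446). Gm16136, on the opposite strand, shares 221 exon bases with Grhl2 and was at 4.65 and 4.74 CPM against 5.51, 4.37 and 6.73 CPM (0.24, adjusted p = 0.669), so reads over those bases may belong to either.

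Of 8 epithelial junction genes linked with GRHL2, 6 were above 0, with a median of 0.34, and 0 were called by edgeR, with 2 higher and 0 lower without adjustment. Cldn4, a claudin of the collecting duct, was at 68.8 and 49.3 CPM against 162, 114 and 176 CPM (log2 fold change 1.35, adjusted p = 0.0629), and DESeq2 called it as higher. Leaving out Ksp-Cre/Prdm16fl/fl mouse 3, edgeR called 3, Cldn4 and Epcam as higher and the splicing regulator Esrp2 as lower (-0.43, adjusted p = 0.0176). Rab25, a GTPase of apical recycling, was at the other end (-0.41, adjusted p = 0.359). The markers of principal cells went the other way: all 7 were below 0, from Hsd11b2, which inactivates glucocorticoids (-0.79, adjusted p = 0.233), to Aqp2, the vasopressin-regulated water channel (-0.21, adjusted p = 0.809), with a median of -0.60 and no call by edgeR or DESeq2 (3 lower at an unadjusted p under 0.05), and with 2 called as lower without that mouse, Fxyd4 and Hsd11b2. The log2 ratio of Grhl2 to these 7 markers was -2.52 and -2.44 in the Prdm16fl/fl mice and -1.78, -1.20 and -1.24 in the Ksp-Cre/Prdm16fl/fl mice, a shift of 1.07 without overlap. Among urine concentration genes the median of 4 was -0.40, from Aqp4 (-2.31, adjusted p = 0.0921) to the urea transporter Slc14a2 (2.63, adjusted p = 0.237), both of which varied widely within a group. DESeq2 called Aqp4 as lower (adjusted p = 0.00125), and so did edgeR without Ksp-Cre/Prdm16fl/fl mouse 3 (adjusted p = 0.0193).

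**Figure D3:**
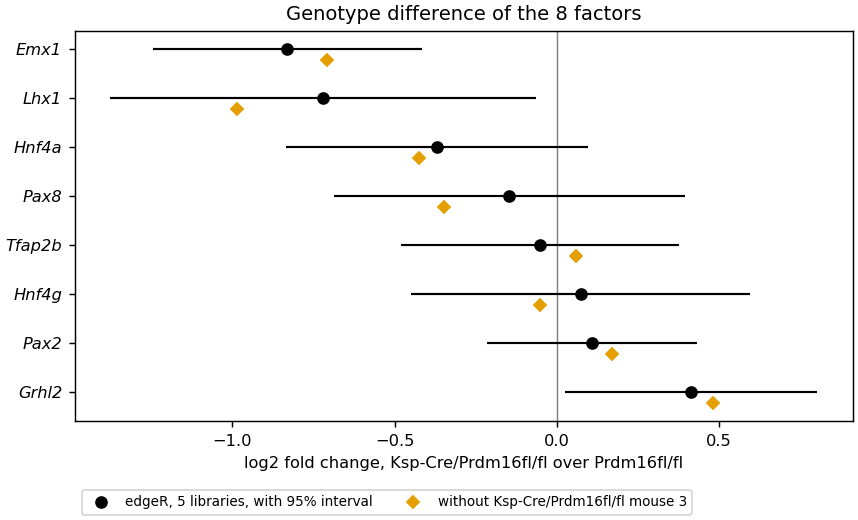
For each of the 8 factors (y axis), the x axis gives the log2 fold change of Ksp-Cre/Prdm16fl/fl over Prdm16fl/fl by edgeR with its 95% interval (black) and the value without Ksp-Cre/Prdm16fl/fl mouse 3 (orange). The intervals of Emx1, Lhx1 and Grhl2 do not reach 0, and no adjusted p was under 0.05 with all 5 libraries.

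The 38 other tested factors of nephron segments, progenitors, injured tubule and podocytes gave 0 calls by edgeR as well, with a median of -0.13, 5 lower and 5 higher at an unadjusted p under 0.05. Those of the loop and distal tubule were below 0 in 9 of 9, with a median of -0.44 that ran from Irx1, a patterning factor (24.7 and 40.2 CPM against 18.3, 20.4 and 15.5 CPM, log2 fold change -0.84, adjusted p = 0.143), to Pou3f3 (-0.011, adjusted p = 0.978), and DESeq2 called Irx1. With Ksp-Cre/Prdm16fl/fl mouse 3 left out, the median was -0.30 and edgeR called Irx1 and Esrrb as lower. Those of the collecting duct had a median of -0.33 over 9, from Hmx2 (-0.89, adjusted p = 0.246) to Elf3, an epithelial ETS factor, at 71.9 and 74.8 CPM against 113, 125 and 124 CPM (0.72, adjusted p = 0.0516). DESeq2 called Elf3 as higher, as did edgeR without Ksp-Cre/Prdm16fl/fl mouse 3. Podocyte factors had a median of -0.11 over 5, from Lmx1b (-0.84, adjusted p = 0.220) to Tcf21, which stromal cells also express (0.55, adjusted p = 0.509). Without that mouse edgeR called Wt1 as lower and Tcf21 as higher, and of the 38 factors 10 in all.

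Factors of injured tubule stood on the other side. All 4 were above 0, 3 of them at an unadjusted p under 0.05 and 0 called by edgeR, with a median of 1.0, from Sox11 (3.64 and 3.73 CPM against 9.37, 4.61 and 1.67 CPM, log2 fold change 0.51, adjusted p = 0.721) to Sox9, which regenerating tubule cells express, at 22.2 and 19.4 CPM against 38.3, 47.8 and 132 CPM (1.80, adjusted p = 0.174). DESeq2 called Sox4, Sox9 and Klf6, and edgeR called these 3 as higher without Ksp-Cre/Prdm16fl/fl mouse 3. Mesenchymal transition factors had a median of 0.35 over 5 tested of 6, from Zeb1 (-0.13, adjusted p = 0.702) to Twist1 (0.44, adjusted p = 0.587), with 0 calls by edgeR or DESeq2 and 0 at an unadjusted p under 0.05.

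**Figure D4:**
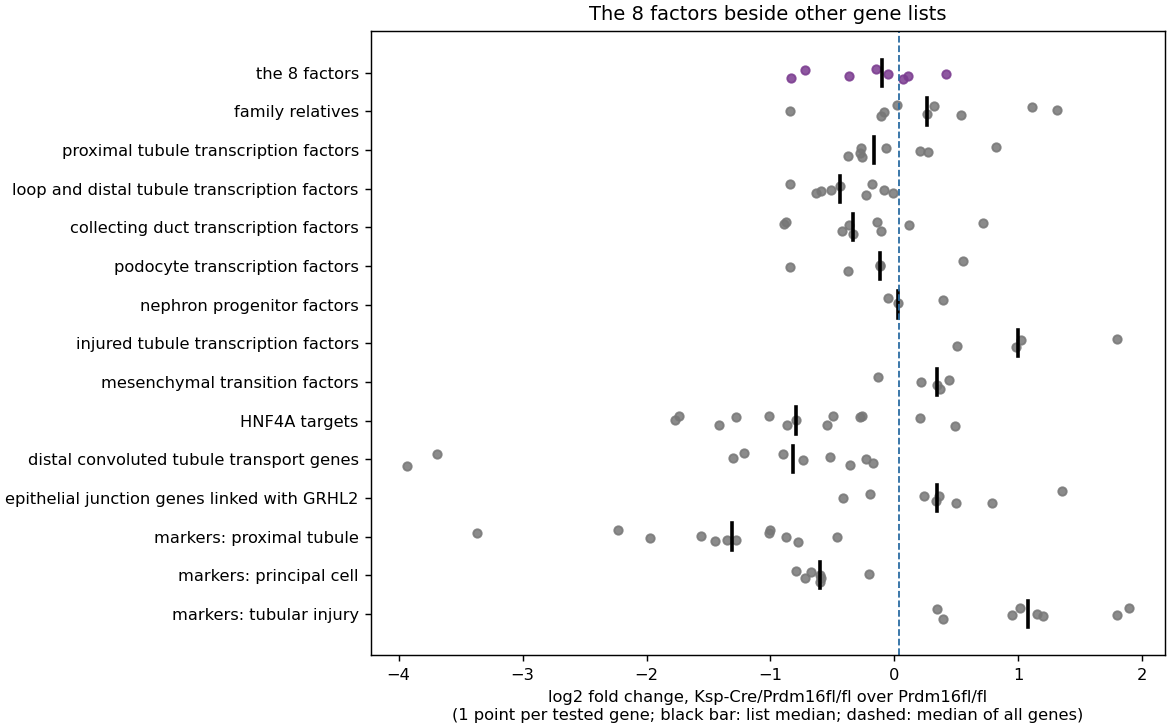
Each point is the log2 fold change (x axis) of 1 tested gene in the gene list named on the y axis; the black bar is the list median and the dashed line the median of all genes, 0.038. The 8 factors spread around 0, whereas the points of HNF4A targets, distal transport genes and proximal tubule markers lie mostly to the left and those of injured tubule factors and injury markers to the right.

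Of 24 relatives from the same gene families, 9 were tested and 0 were called by edgeR or DESeq2, with 1 lower without adjustment (Lmx1b) and a median of 0.26 that went to 0.085 without Ksp-Cre/Prdm16fl/fl mouse 3. Beside Emx2, Tfap2a and Lmx1b, the relatives were rare: Pax9 was at 0.944 to 1.58 CPM (log2 fold change -0.083), Lhx2 at 0.65 to 1.27 CPM (0.32), Lhx5 at 0.0674 to 0.738 CPM (1.32), Lmx1a at 0.40 to 1.30 CPM (0.26) and Grhl1 at 1.55 to 3.93 CPM (0.53). Lhx6, at 0.472 and 1.15 CPM against 1.99, 1.77 and 1.47 CPM (1.11, adjusted p = 0.268), did not overlap. Of the 15 that were not tested, Pax1, Pax3, Pax4, Pax7, Lhx3, Lhx4, Lhx8, Isl1, Tfap2c and Tfap2d had 0 counts in every library.

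The values of markers of other cells and states stood beside these as follows. Of 8 tubular injury markers, 6 were higher in each mouse with Ksp-Cre, with a median log2 fold change of 1.08 that ran from Cdh6 (0.35) to Lcn2 (1.89), and their summed level was 14978 and 15554 CPM against 32079.9 to 38025 CPM, with none at 0. Most of this sum was Spp1, at 12277 and 13442 CPM against 27016, 28061 and 33774 CPM. Vcam1 and Cdh6 overlapped between the genotypes. Thick ascending limb markers had a median of -0.68 over 6 (Cldn10 -0.81, Cldn16 -0.18), intercalated cell markers one of -0.91 over 6, where the anion exchanger Slc4a9 fell (181 and 167 CPM against 89.4, 67.8 and 84.2 CPM, -1.11, adjusted p = 0.0412 by edgeR; Slc4a1 -1.74, Atp6v0d2 -0.31), and podocyte markers one of -0.85 over 5, where nephrin, Nphs1, fell (53.9 and 50.01 CPM against 28.3, 29.5 and 28.7 CPM, -0.85, adjusted p = 0.0412 by edgeR; Synpo -0.062). Fibroblast and pericyte markers had a median of 0.67 over 6 (Acta2 0.23, Col1a2 0.97) and summed to 487 and 715 CPM against 800.3 to 1208 CPM. Macrophage markers had a median of 0.16 over 6 (Lyz2 -0.058, C1qa 0.35), endothelial markers one of -0.13 over 5 (Kdr -0.67, Flt1 0.74), lymphocyte markers one of -0.26 over 3 tested (Cd3e -0.35, Cd3d -0.22) and proliferation genes one of 0.45 over 4 (Mki67 0.24, Ccnb1 0.64). Red blood cell markers were all 5 higher without overlap, from Alas2 (log2 fold change 2.14) to Hba-a2 (0.0674 and 0.0718 CPM, each a single read, against 3.92, 4.43 and 1.07 CPM), and summed to 6.67 and 10.8 CPM against 151, 150.3 and 40.5 CPM. In the 4 libraries other than Ksp-Cre/Prdm16fl/fl mouse 3, the medians were -0.40 for thick ascending limb, 0.38 for macrophage, -0.021 for lymphocyte and 0.66 for proliferation markers. In that setting edgeR called all 8 injury, all 5 red blood cell and all 4 proliferation genes as higher, 4 fibroblast and 2 macrophage markers as higher, and 2 thick ascending limb markers, 4 intercalated cell markers, 4 podocyte markers and the endothelial Kdr as lower. DESeq2 with all 5 libraries called 6 injury markers, all 5 red blood cell markers and 2 fibroblast markers as higher, and 2, 3 and 4 markers of thick ascending limb, intercalated cells and podocytes as lower. The part of these differences in the values of the 8 factors was not tested.

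Over the 5 libraries, each factor was set beside all tested genes whose mean log2 CPM was 1 or more, and the 3 whose centred log2 values lay nearest, by the root mean square difference, were taken. Grhl2 was nearest to Col4a6 (0.0075), a basement membrane collagen, then Mbp and Tars. Emx1 was nearest to Mrpl12 (0.018), Colgalt2 (0.021) and Idh2 (0.038), of which Mrpl12 is a subunit of the mitochondrial ribosome and Idh2 a mitochondrial dehydrogenase. Pax2 was nearest to Sall2, Sugp2 and Trim68, Pax8 to Mknk2, Asic1 and Alkbh3, and Hnf4g to Zhx3, Fitm2 and Sclt1. Hnf4a (Ctbs at 0.053, Erc2, Gzmk) and Lhx1 (Tc2n at 0.083, Kdr, Kng1) had no gene as near. With 5 points per gene, and so many genes to choose from, such nearness is a description only.

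**Figure D5:**
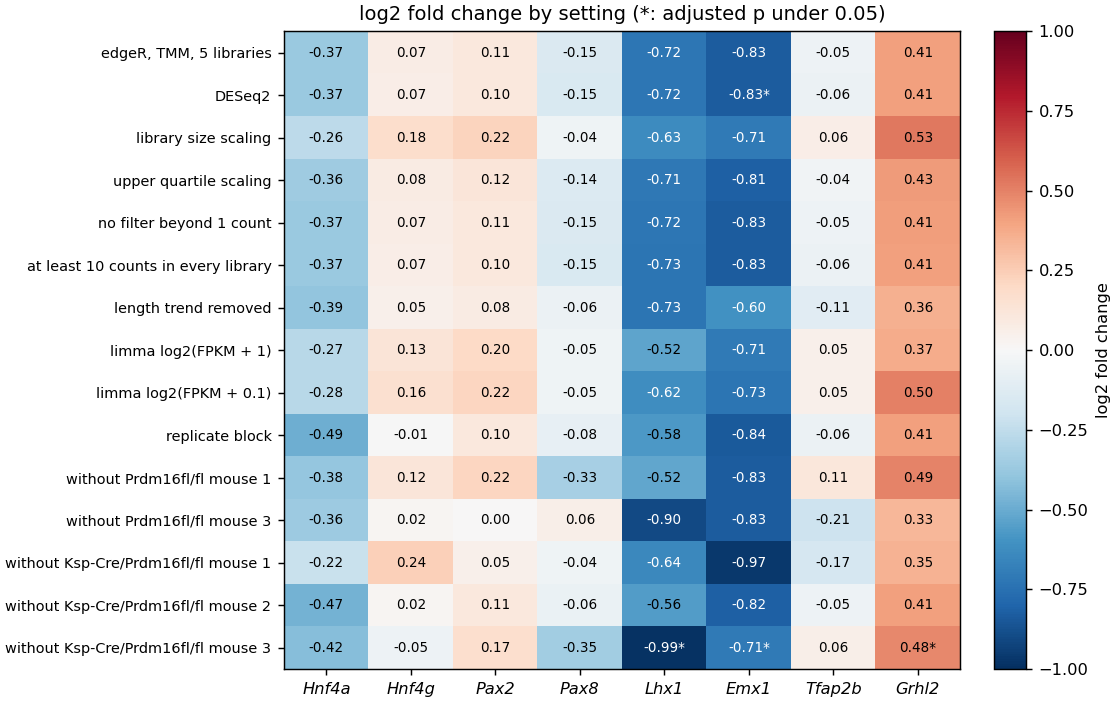
Each cell gives the log2 fold change of 1 factor (columns) under 1 setting of the analysis (lines), colored from blue (lower in the Ksp-Cre/Prdm16fl/fl mice) to red (higher), with a star where the adjusted p was under 0.05. Emx1, Lhx1 and Hnf4a are below 0 and Grhl2 and Pax2 above 0 throughout, while the sign of Hnf4g, Pax8 and Tfap2b turns under at least 1 setting, and stars stand only in the lines of DESeq2 and of the setting that leaves out mouse 3 of the Ksp-Cre/Prdm16fl/fl group.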

How the data were processed

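RNA was sequenced from the injured kidney of 5 mice, 1 library per mouse, and groups follow the genotype in the labels. The deposited counts are raw numbers of reads that the authors assigned to each gene. The authors also deposited TPM and FPKM values made from these counts with merged exon length, which were recomputed and differed by rounding only. The submitters' processing notes name CASAVA, featureCounts 2.0.1, DESeq2 1.16.1 and the human build hg38, although the samples are from mice. Aligner, mouse build, annotation and use of strand are not given in the sources used here, so positions are printed as the files give them.

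Of 35478 genes, filterByExpr of edgeR 4.0.16 (R 4.3.3) kept 16394. Broken lines of 5 genes were rejoined. Counts were scaled with TMM and tested with the quasi-likelihood test, without covariates, at a Benjamini-Hochberg adjusted p under 0.05 over all genes tested. CPM are per 1000000 TMM-scaled counts. Tests were first tried on simulated data with the same dispersion for every gene and no outlying library, unlike the data here. Intervals are 95% intervals of the fit. Exact permutation tests run over 10 splits of the mice. Alternatives were DESeq2 1.42.0, limma 3.58.1 on log2(FPKM + 1) and log2(FPKM + 0.1), other scalings and filters, removal of a trend on gene length, a threshold of 0.10, the mouse number as a block and leaving out each mouse.

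The 8 factors and the gene lists were chosen with earlier results of these data known. Named are the 8 factors, their tested relatives, called genes of the lists, the lowest and the highest gene of each list, the 3 genes nearest to each factor and genes that overlap one. Not all genes under this rule are given. Others (Wnt4, Slc12a3, Pvalb and genes called by DESeq2 or without Ksp-Cre/Prdm16fl/fl mouse 3) were named after their values were seen. Libraries are separate mice, and no pair was a duplicate. Mitochondrially encoded genes were not analysed here.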

Additional observations from a re-analysis of the deposited data

How the results depend on the processing

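Fold changes are on the log2 scale. Emx1 passed the threshold with DESeq2 (-0.83, adjusted p = 0.00489). Over the alternatives that kept all 5 libraries it ran from -0.84 to -0.60, the weakest after removal of the length trend (edgeR adjusted p = 0.148). It also stayed short of the threshold with limma on log2(FPKM + 1) (adjusted p = 0.128) and log2(FPKM + 0.1) (0.133), and with the replicate block in edgeR (0.249). Leaving out each mouse in turn gave ranges of -0.47 to -0.22 for Hnf4a, -0.052 to 0.24 for Hnf4g, 0.0027 to 0.22 for Pax2, -0.35 to 0.058 for Pax8, -0.99 to -0.52 for Lhx1, -0.97 to -0.71 for Emx1, -0.21 to 0.11 for Tfap2b and 0.33 to 0.49 for Grhl2. Without Ksp-Cre/Prdm16fl/fl mouse 3 edgeR called Lhx1 (-0.99), Emx1 (-0.71) and Grhl2 (0.48), and Hnf4g (-0.052) and Tfap2b (0.059) turned sign; Tfap2b also turned without Prdm16fl/fl mouse 1 (0.11), with library size scaling (0.063), with log2(FPKM + 1) (0.049) and with log2(FPKM + 0.1) (0.054), and Pax8 without Prdm16fl/fl mouse 3 (0.058). Library size scaling moved the median of all genes from 0.038 to 0.15, and FPKM moved it to 0.11 and 0.13. The cause of these turns was not tested.

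Of the factors, 0 were called as lower and 0 as higher by edgeR; as lower, DESeq2 called 1, an adjusted p under 0.10 gave 1, and leaving out a mouse gave 0 to 2, and as higher 0 to 1. Over all genes, 143 were called as lower and 17 as higher. DESeq2 called 902 and 308, no filter beyond 1 count 408 and 63, removal of the length trend 29 and 4, and an adjusted p under 0.10 603 and 153. Fewer were called as lower with library size scaling (37), log2(FPKM + 1) (51) and log2(FPKM + 0.1) (34). Leaving out a mouse gave 0 to 1787 lower and 0 to 1266 higher; without Prdm16fl/fl mouse 1 or 3 or Ksp-Cre/Prdm16fl/fl mouse 1 or 2, edgeR called 0 genes, with 1749, 1330, 2514 and 2298 at an unadjusted p under 0.05. With Ksp-Cre/Prdm16fl/fl mouse 3 left out, the median of the relatives was 0.085, that of loop and distal tubule factors -0.30 and that of the 38 other factors -0.18; marker medians without it stand beside their lists.

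With the mouse number as a replicate block, Hnf4g was at -0.0075 and 0 genes were called in either direction, with 2061 at an unadjusted p under 0.05. Deviations of mice that share a number were uncorrelated (0.001 for mouse 1, -0.022 for mouse 3). The Prdm16fl/fl mice mirror each other around their own mean, so these correlations are not separate tests. They cannot decide whether the numbers pair the mice.

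With 2 and 3 mice, the 95% interval of a factor reached 0.32 to 0.66 on either side of its log2 fold change, which limits what could be detected. Whole-gene counts carry no isoform or start.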
